A study of Apis mellifera with 36 samples.

Results

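This report follows 4 antimicrobial peptide genes in honey bee brains: hymenoptaecin (GB51223), abaecin (GB47318), apidaecin (GB47546) and defensin 1 (GB41428). They were chosen by gene ID, and all 4 were found among the 15314 gene IDs of the count files. The files give IDs only, so the names are those by which these IDs are known in the honey bee gene set. All 4 passed the filter on low counts.

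Antimicrobial peptides are small, secreted, mostly cationic proteins that kill or stall bacteria and fungi. In insects they are made chiefly by the fat body and by blood cells, and their genes are switched on through the Toll and Imd pathways after microbial products are sensed. Hymenoptaecin is a glycine-rich peptide, abaecin and apidaecin are proline-rich peptides, and defensin 1 is a cysteine-stabilised peptide that in honey bees is also made in glands of the head and occurs in royal jelly as royalisin.

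RNA was sequenced from brains of 36 individual worker bees aged 7 days, from tissue holding mostly the mushroom bodies and the central brain after the hypopharyngeal glands, optic lobes and lower midbrain had been removed. Bees lived from emergence in dishes of 10 and were classed by how they met an intruder bee and a queen larva: 12 guards attacked the intruder, 12 nurses tended the larva and 12 unresponsive bees showed no overt response. Of each type, 6 bees came from colony 5 and 6 from colony 6, and each colony descended from a queen inseminated by 1 drone, so the colonies are 1 family each. The labels name no infection treatment, and they give for every library the reads of DWV, the deformed wing virus that infects honey bees. A bee is called below by its type and its title number. Each number occurs in 3 bees of 1 colony, 1 per type, and the labels do not say what it stands for.

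Counts over genes came to 16.2 to 27.5 M (1000000 counts) per library, and levels are given as CPM, the gene's counts per 1 M such counts. DWV load fell into separate ranges with nothing between them: 20 bees had 2.60 to 63.9 DWV reads per 1000000 total reads (RPM; low) and 16 had 6673 to 28967 (high). The high range held 13 of the 18 colony 5 bees (5 guards, 2 nurses and all 6 unresponsive bees) and 3 of the 18 colony 6 bees, all guards. Lists of cell type markers (22 symbols) and of immune pathway genes (28 symbols) could not be tied to any file ID, so the levels of fat body, blood cell or gland RNA, and of the receptors and signalling genes upstream of the peptides, were not tested. In such bulk tissue, fewer cells of a type and less RNA per cell cannot be told apart.

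Hymenoptaecin, abaecin and apidaecin were high together in 4 guards of colony 6 and low in the other 32 bees. Guards 210, 213, 230 and 237 held 93.2% of all hymenoptaecin counts of the 36 libraries, 91.1% of the abaecin counts and 96.5% of the apidaecin counts, but 20.8% of the defensin 1 counts. Levels are compared below within a gene and between bees, since no gene lengths were used.

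Hymenoptaecin reached 922 CPM in Guard 210, 739 CPM in Guard 237, 575 CPM in Guard 213 and 570 CPM in Guard 230. The remaining colony 6 guards had 12.5 CPM (Guard 205) and 0.554 CPM (Guard 222). The 12 nurses and unresponsive bees of colony 6 had 0.0776 to 3.55 CPM, so the 4 high guards lay 160-fold to 259-fold above the highest of them, while Guard 222 lay within their range. In colony 5 the lowest, median and highest levels were 0.813, 2.56 and 66.4 CPM in guards, 0.524, 3.53 and 21.5 CPM in nurses, and 0.531, 11.4 and 22.4 CPM in unresponsive bees. The 3 types of colony 5 overlapped throughout, and its highest bee, Guard 5, was below the lowest of the 4 guards of colony 6.

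Abaecin was at 108 CPM in Guard 210, 89.3 CPM in Guard 237, 77.8 CPM in Guard 213 and 70.8 CPM in Guard 230. Guard 205 had 6.04 CPM and Guard 222 had 0.201 CPM. The other 30 bees had 0 to 6.74 CPM, the highest being Nurse 32 of colony 5. In 4 bees of colony 6 (Nurse 213 and Unresponsive bees 210, 213 and 237) no abaecin read was counted, which at their depth allows up to 0.116 to 0.181 CPM. In colony 6 the median was 74.3 CPM in guards, against a median of 0.126 CPM over the nurses and unresponsive bees.

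Apidaecin was at 987 CPM in Guard 237, 734 CPM in Guard 213, 641 CPM in Guard 210 and 436 CPM in Guard 230. Guard 205, which was above the colony 6 nurses and unresponsive bees in hymenoptaecin and abaecin, was inside their range in apidaecin at 1.17 CPM, as was Guard 222 at 2.16 CPM. The other 30 bees had 0.0498 to 47.5 CPM, and Guard 5 of colony 5 was the highest of these. The order of the 4 guards therefore differed by gene: Guard 210 led in hymenoptaecin and abaecin, Guard 237 in apidaecin. Apidaecin genes have near-identical copies in the bee genome, so counts of this ID depend on how reads were shared among copies. The share of alignments that were not unique was 2.86 to 3.07% in the 4 guards and 2.65 to 3.78% in the other bees. That share covers the whole library, so it cannot show how reads were shared among the apidaecin copies.

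Defensin 1 did not follow these 4 bees. In colony 6 its highest guard was Guard 222, at 105 CPM, the bee with low hymenoptaecin, and the others had 76.4 CPM (Guard 210), 64.6 CPM (Guard 205), 42.4 CPM (Guard 237), 34.7 CPM (Guard 213) and 30.6 CPM (Guard 230). Colony 6 nurses had 1.26, 8.73 and 84.1 CPM (lowest, median, highest) and unresponsive bees 0.399, 3.07 and 102 CPM, so both overlapped the guards. In colony 5 the values were 2.14, 8.82 and 31.3 CPM in guards, 0.681, 5.20 and 49.3 CPM in nurses and 0.344, 8.28 and 49.0 CPM in unresponsive bees. Every colony 6 guard lay above 5 of the 6 colony 5 guards, and Guard 230 of colony 6 lay just below Guard 19 of colony 5.

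**Figure D1:**
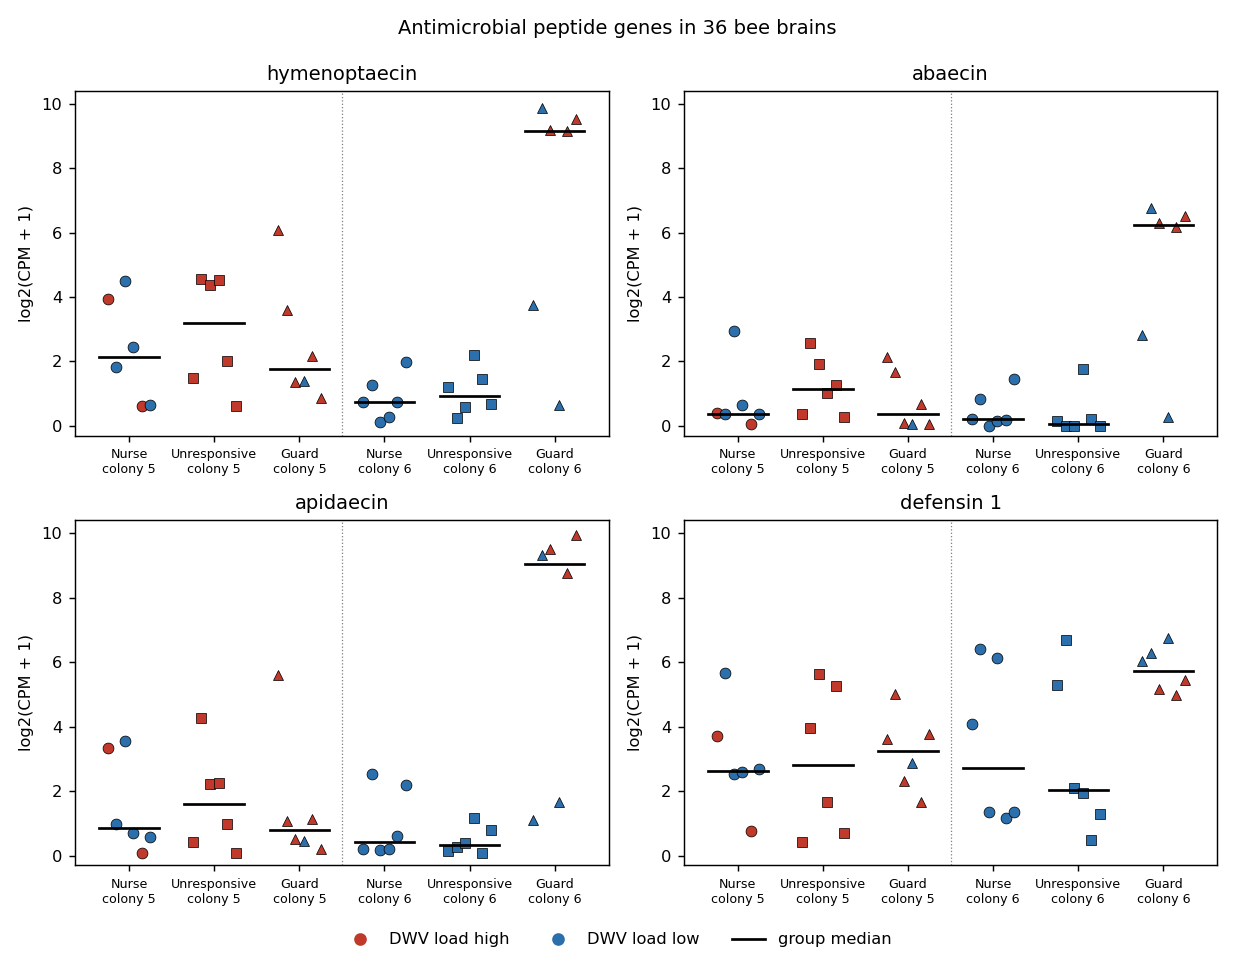
Level of each gene, as log2(CPM + 1), in every bee by colony and behavioural type; triangles, circles and squares mark guards, nurses and unresponsive bees, red marks a high and blue a low DWV load, and the bar is the group median. Guards 210, 213, 230 and 237 of colony 6 stand apart in hymenoptaecin, abaecin and apidaecin (570 CPM or more in hymenoptaecin), and in defensin 1 the guards of colony 6 overlap the other groups.

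All 4 genes were among the most variable in the data. The SD of log2(CPM + 1) over the 36 bees was 2.81 for hymenoptaecin, 1.99 for abaecin, 2.90 for apidaecin and 2.04 for defensin 1, where the median of 10948 genes tested was 0.17. The number of tested genes with a larger SD was 9, 23, 6 and 21, in that order. After the means of the 6 groups of type and colony were subtracted, the SD was still 2.06, 1.33, 2.14 and 1.91, so much of the spread lay between bees of 1 group.

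Guards were compared with nurses over both colonies with colony as a further term, in edgeR's quasi-likelihood test with Benjamini-Hochberg adjustment over all genes tested. None of the 4 genes passed an adjusted p of 0.05 (background: 10 of 10948 genes, 0.0913%), although 3 had an unadjusted p under 0.05 (background: 15.2% of genes) and DESeq2 called the same 3 (background: 0.979% of genes). Hymenoptaecin was at a log2 difference of 5.91 ± 1.40 (SE; 12 guards, 12 nurses; edgeR adjusted p = 0.0745), abaecin at 4.46 ± 1.26 (adjusted p = 0.123), apidaecin at 5.87 ± 1.43 (adjusted p = 0.0774) and defensin 1 at 0.52 ± 0.79 (adjusted p = 0.782). The median difference of the 4 genes was 5.16, and that of all genes tested 0.00. With DESeq2 the adjusted p was 6.9e-10 for hymenoptaecin, 0.001 for abaecin and 1.7e-07 for apidaecin. Without Guards 210, 213, 230 and 237, which were picked for their levels of these genes, the differences were 1.51, 0.85 and 0.66, given as a description with no test. Hymenoptaecin passed when Guard 222, Guard 35 or Guard 40 was left out (edgeR adjusted p = 0.0469, 0.0406 and 0.0423), and apidaecin when Guard 35 or Guard 40 was left out (0.0465 and 0.0453).

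Within colony 6 alone, the levels of hymenoptaecin, abaecin and apidaecin rose in guards against nurses and defensin 1 did not pass (background: 30 of 10954 genes, 0.274%). This comparison was added after the values were seen, so its adjusted p values are not those of a planned test. The log2 differences were 8.91 ± 1.41 for hymenoptaecin (6 guards, 6 nurses; edgeR adjusted p = 0.0210), 6.98 ± 1.26 for abaecin (adjusted p = 0.0336), 8.29 ± 1.48 for apidaecin (adjusted p = 0.0336) and 1.03 ± 1.16 for defensin 1 (adjusted p = 0.733). The median of the 4 was 7.63, against 0.00 for all genes. The guards overlapped the nurses in all 4 genes, because Guard 222 lay within the nurses' range in the first 3 and Nurse 210 and Nurse 222 within the guards' range in defensin 1. Without the 4 high guards, Guards 205 and 222 against the 6 nurses gave 2.67 for hymenoptaecin, 2.67 for abaecin and 0.10 for apidaecin, again with no test.

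These calls in colony 6 lay close to the threshold and depended on single libraries. Leaving out each of the 18 libraries in turn kept hymenoptaecin past it in 11 fits, and lost it without Guards 210, 213 or 230 or Nurses 213, 222, 230 or 237 (adjusted p = 0.0511 to 0.0688). Abaecin and apidaecin stayed past it in 4 fits each, those without Guard 205, Guard 222, Unresponsive 222 or Unresponsive 237, and the log2 differences ranged from 6.67 to 8.04 and from 7.93 to 9.05. With DWV load as a further term, the differences were 7.91, 5.94 and 6.60, with adjusted p of 0.326, 0.664 and 0.648 (background: 0 of 10954 genes). Without the 3 libraries numbered 213 the differences were 8.55, 6.56 and 7.83, with adjusted p of 0.249, 0.285 and 0.287 (background: 0 of 10961 genes).

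Unresponsive bees had lower levels than guards in the same 3 genes of colony 6 (background: 24 of 10954 genes, 0.219%). Hymenoptaecin fell by 8.48 on the log2 scale (SE 1.37; edgeR adjusted p = 0.0317), abaecin fell by 7.05 (SE 1.26; adjusted p = 0.0336) and apidaecin fell by 10.08 (SE 1.68; adjusted p = 0.0317). Defensin 1 was at -1.25 (adjusted p = 0.676). Both comparisons within colony 6 use the same 6 guards, and both were added after the values were seen. Leaving out 1 library kept the calls in 8, 7 and 8 of 18 fits, and each of Guards 210, 213, 230 and 237 and Unresponsive bees 205, 210, 213, 222, 230 and 237 ended all 3 calls when left out (adjusted p up to 0.102), while abaecin was also lost without Nurse 222 (adjusted p = 0.0523). Over both colonies, none of the 4 genes passed (background: 2 of 10948 genes, 0.0183%) with differences of -5.27, -4.16, -5.80 and -0.39, 3 of them at an unadjusted p under 0.05 (background: 15.7%) and 3 called by DESeq2 (background: 1.2%).

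In colony 5, none of the 4 genes passed between any 2 types in edgeR (background: 0 of 10958 genes, 0%), none had an unadjusted p under 0.05, and DESeq2 was not run on that colony's types alone. For guards against nurses the log2 difference was 0.93 for hymenoptaecin (95% interval -1.59 to 3.45), -0.41 for abaecin (-2.80 to 1.99), 1.19 for apidaecin (-1.88 to 4.26) and -0.21 for defensin 1 (-2.51 to 2.08). The intervals are wide, and those of hymenoptaecin, abaecin and apidaecin lie below the fitted differences of colony 6. A direct test of whether type differences varied with colony, an interaction of type and colony, did not pass in edgeR for any of the 4 (background: 3 of 10948 genes, 0.0274%). It tests 2 terms together, guards and unresponsive bees each against nurses. Its p values, in edgeR and DESeq2 alike, are therefore not those of the guard-minus-nurse difference alone. The guard-minus-nurse difference was greater in colony 6 by 7.96 for hymenoptaecin (adjusted p = 0.0808), 7.37 for abaecin (0.0958), 7.04 for apidaecin (0.136) and 1.25 for defensin 1 (1.00), with 3 genes at an unadjusted p under 0.05 (background: 4.14%). DESeq2 called hymenoptaecin and apidaecin, with adjusted p of 0.0028 and 0.0255 (background: 0.21%), and the edgeR test passed for hymenoptaecin, abaecin and apidaecin when Guard 205, Guard 222 or Guard 5 was left out (adjusted p from 0.00702 to 0.0275).

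Nurses and unresponsive bees were not separated by any of the 4 genes over both colonies (background: 0 of 10948 genes, 0%). The log2 differences of unresponsive bees against nurses were 0.64 (95% interval -1.74 to 3.02) for hymenoptaecin, 0.30 (-2.12 to 2.72) for abaecin, 0.06 (-2.90 to 3.02) for apidaecin and 0.13 (-1.48 to 1.73) for defensin 1. None had an unadjusted p under 0.05 in edgeR, and DESeq2 called none (background: 0.0731%). These intervals leave room for several-fold differences either way.

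**Figure D2:**
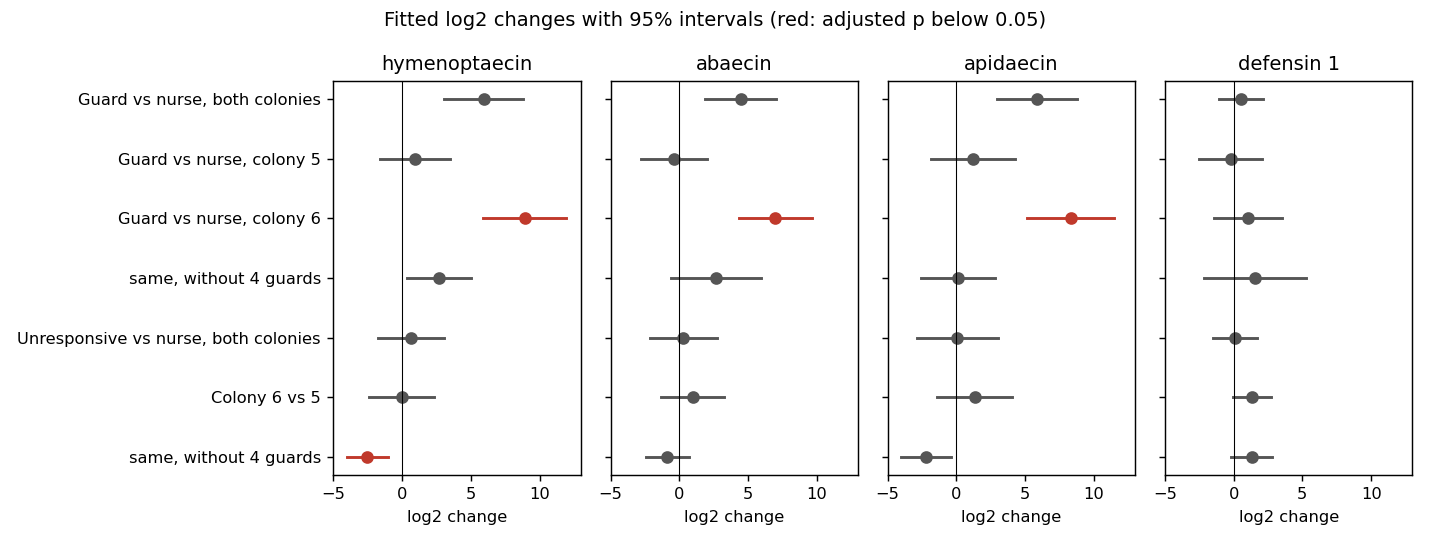
Fitted log2 change of each gene in 7 comparisons, with its 95% interval; red marks an edgeR adjusted p below 0.05. The rows without 4 guards leave out Guards 210, 213, 230 and 237, picked for their levels of these genes. Those rows are a description, and red in them is no test. The change of guards against nurses is 8.91, 6.98 and 8.29 for hymenoptaecin, abaecin and apidaecin within colony 6, and the intervals of colony 5 include 0.

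No difference between the colonies over all bees passed for any of the 4 genes, and among guards alone abaecin and defensin 1 were higher in colony 6. The fits within 1 type were added after the values were seen, and they were not repeated with single libraries left out. Over all bees, with type as a further term, the difference of colony 6 from colony 5 was -0.04 ± 1.17 for hymenoptaecin, 0.96 ± 1.13 for abaecin, 1.33 ± 1.33 for apidaecin and 1.34 ± 0.66 for defensin 1, and edgeR called none of them (background: 3737 of 10948 genes, 34.1%; none at an unadjusted p under 0.05; DESeq2 called none, background 35.8%). Without the 4 guards the log2 differences were -2.53 for hymenoptaecin, -0.86 for abaecin, -2.23 for apidaecin and 1.32 for defensin 1. Those bees, all of colony 6, were left out for their high levels of the first 3 genes, which lowers the colony 6 mean, so these values are a description with no test. Among nurses alone hymenoptaecin was at -2.88 (6 bees each; edgeR adjusted p = 0.0997; background 13.9%), and among unresponsive bees alone at -3.13 (adjusted p = 0.0785; background 7.48%), and abaecin was too low to be tested in either type. Among guards alone, abaecin rose by 5.80 ± 1.29 (adjusted p = 0.0245) and defensin 1 by 2.38 ± 0.60 (adjusted p = 0.0401) in colony 6 (background: 731 of 10782 genes, 6.78%), while hymenoptaecin was at 5.06 ± 1.63 (0.0994) and apidaecin at 5.79 ± 1.87 (adjusted p over 0.05). Over all bees defensin 1 passed in 1 of 36 fits, that without Nurse 19 (adjusted p = 0.0488). Colony and DWV load moved together, with 13 of 18 bees in the high range in colony 5 and 3 of 18 in colony 6.

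High peptide gene levels and a high labelled virus load coincided in some bees and not in others. Of the 4 high guards, Guards 213, 230 and 237 were the 3 high-load bees of colony 6 (8526, 8608 and 6673 RPM), and Guard 210 had a low load of 32.0 RPM. The 13 high-load bees of colony 5 had higher loads, 10412 to 28967 RPM, and hymenoptaecin of 0.524 to 66.4 CPM (median 3.51), against 0.576 to 21.5 CPM (median 2.56) in the 5 low-load bees of that colony. High and low bees of colony 5 therefore overlapped, and none of the 4 genes passed between them in edgeR (background: 1 of 10958 genes, 0.00913%; none at an unadjusted p under 0.05; DESeq2 called none of the 3 it could test and gave no p for apidaecin, background 0.0274%). The log2 difference of hymenoptaecin was 0.96, with a 95% interval of -2.88 to 4.79.

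Within the 6 guards of colony 6, 3 had a high and 3 a low load. In defensin 1 the high-load guards were all lower, at 30.6, 34.7 and 42.4 CPM against 64.6, 76.4 and 105 CPM, with no overlap, as in 683 of 10948 genes (6.24%). The log2 difference was -1.18 ± 0.21, with an edgeR adjusted p of 0.551 (background: 0 of 10799 genes, 0%; unadjusted p = 0.000766) and a DESeq2 adjusted p of 2.1e-06 (background: 0.352%), so the call depended on the tool. The high-load guards were those numbered 213, 230 and 237. Nurses of these numbers, all with a low load, were also below Nurses 205, 210 and 222 in defensin 1 (1.26 to 1.55 against 15.9 to 84.1 CPM). Load and title number therefore cannot be told apart in these guards. For hymenoptaecin, abaecin and apidaecin the groups overlapped because Guard 210 had a low load, and the differences of 1.02, 1.08 and 1.76 had adjusted p of 0.946, 0.919 and 0.903. Without Guard 210 they were at 6.63, 4.71 and 8.76, and apidaecin passed (edgeR adjusted p = 0.565, 0.601 and 0.0489). Without Guard 205 or Guard 222 hymenoptaecin was at 0.46 and 0.44 and abaecin at 0.57 and 0.49.

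A slope on log10 DWV load, adjusted for type and for colony, passed for none of the 4 genes in edgeR (background: 0 of 10948 genes, 0%) or DESeq2 (background: 0.116%). Per 10-fold higher load the log2 level was higher by 0.68 ± 0.39 for hymenoptaecin, 0.50 ± 0.40 for abaecin and 1.04 ± 0.41 for apidaecin, the last being the only one with an unadjusted p under 0.05 (0.0165; background 4.38% of genes; adjusted p = 0.999), and defensin 1 was at -0.04 ± 0.34. Without Guard 210, the high guard with a low load, the first 3 slopes were 1.52, 1.14 and 1.92 (edgeR adjusted p = 0.240, 0.935 and 0.0719). Without Nurse 32 hymenoptaecin was at 1.13 and abaecin at 1.04, and without Guard 35 abaecin was at 0.33. Because load fell into separate ranges, correlations were taken within each. In the high range (16 bees) Pearson's r of log2(CPM + 1) with log10 load was -0.541 for hymenoptaecin, -0.581 for abaecin, -0.558 for apidaecin and -0.259 for defensin 1, and Spearman's rho was -0.429, -0.344, -0.438 and -0.197. Adjusted over 8 relations, the permutation p of r was 0.0831 for each of the first 3, and r without the 2 farthest bees was -0.581, -0.552 and -0.620. All 3 passed without Guard 40 (adjusted permutation p = 0.0402). The negative values were not seen within colony 5: among its 13 bees of that range r was 0.0285, 0.114, 0.0700 and 0.0890 and rho 0.0659, 0.225, 0.0495 and 0.192, with adjusted permutation p of 0.924. In the low range (20 bees) r was 0.437, 0.344, 0.195 and 0.296 and rho 0.490, 0.287, 0.0782 and 0.199, with adjusted permutation p of 0.0865 or more. Among the 15 colony 6 bees of that range r was 0.508, 0.490, 0.283 and 0.314 and rho 0.357, 0.204, -0.111 and 0.0786, so that r and rho of apidaecin differed in sign (adjusted permutation p of r 0.232 or more, of rho 0.876).

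**Figure D3:**
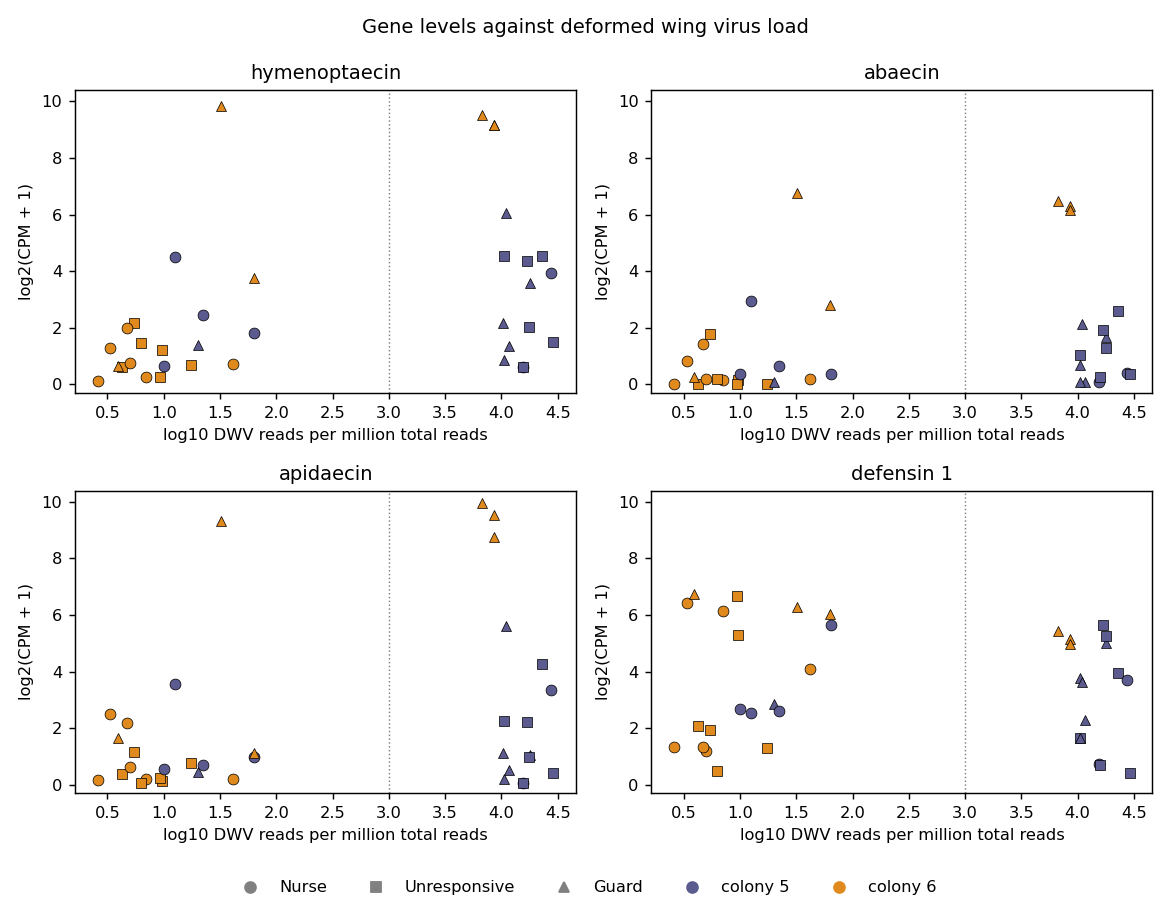
Level of each gene, as log2(CPM + 1), against log10 DWV load in RPM, one point per bee; orange marks colony 6, blue-violet colony 5, the shape gives the type, and the dotted line is the boundary of 1000 RPM. The 13 high-load bees of colony 5 lie to the right of the 3 high-load guards of colony 6 and stay below them in hymenoptaecin, abaecin and apidaecin.

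Hymenoptaecin, abaecin and apidaecin also varied together in the bees outside the high cluster. Because the 4 guards form a cluster of their own, no correlation over all bees is given. Over the other 32 bees, r of log2(CPM + 1) was 0.818 for hymenoptaecin with abaecin (rho 0.848), 0.827 for hymenoptaecin with apidaecin (rho 0.750) and 0.695 for abaecin with apidaecin (rho 0.773), each with a permutation p of r of at most 0.00018 after adjustment over 6 pairs. Without the 2 bees farthest from the median, r was 0.783, 0.736 and 0.747. With defensin 1 the same 3 genes gave r of 0.114, 0.196 and 0.168 (rho 0.0660, 0.194 and 0.281; adjusted permutation p of 0.421 or more). The colonies were then taken apart. In the 18 colony 5 bees, r was 0.815, 0.914 and 0.770 for the 3 pairs without defensin 1 (rho 0.882, 0.942 and 0.884; adjusted permutation p up to 0.00106) and 0.288 to 0.374 with it (0.159 or more). In the 14 colony 6 bees outside the cluster, hymenoptaecin and abaecin gave 0.943 (rho 0.818; adjusted permutation p = 0.00012). Hymenoptaecin with apidaecin gave 0.401 (rho 0.371; adjusted permutation p = 0.303) and abaecin with apidaecin 0.509 (rho 0.569; 0.152). Counts in those bees went down to 2 for hymenoptaecin, 0 for abaecin and 1 for apidaecin.

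**Figure D4:**
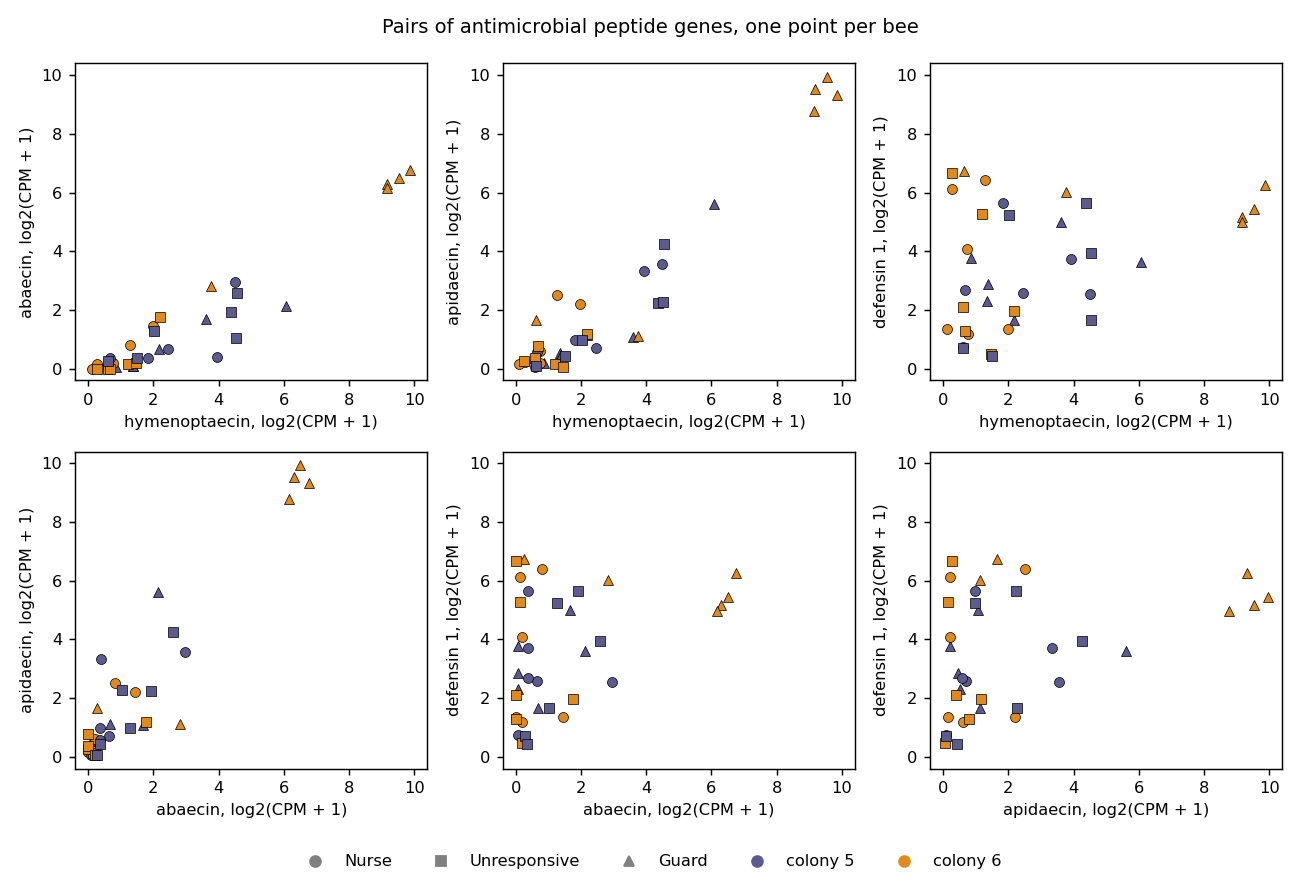
Level of each gene against each other gene, as log2(CPM + 1), one point per bee; orange marks colony 6, blue-violet colony 5, and the shape gives the type. Hymenoptaecin, abaecin and apidaecin rise together along a diagonal with the 4 guards at its end, and defensin 1 spreads over its range at low levels of the other 3 (r 0.114 to 0.196 over the 32 bees outside the cluster).

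Other genes shared these patterns. Over all 36 bees, after each colony's mean was subtracted, the gene most like hymenoptaecin, abaecin and apidaecin was GB51306, at r of 0.963, 0.936 and 0.996. GB51306 had 357 to 1108 CPM in the 4 guards and 0.530 and 1.81 CPM in Guards 205 and 222, and with apidaecin it kept r of 0.987 over the 32 bees outside the cluster. Next came GB50423 for hymenoptaecin (0.931) and apidaecin (0.955) and GB43784 for abaecin (0.906). Of 10944 other genes, 30 had r over 0.8 with hymenoptaecin, 24 with abaecin and 31 with apidaecin, but 1 with defensin 1. For defensin 1 the nearest genes were GB53576 (0.823) and GB44549 (0.794), and neither was high in the 4 guards as a set, with GB53576 at 5.52 CPM in Guard 230 and 2.38 CPM in Guard 237. The files do not name these IDs. Over the 32 bees outside the cluster r was lower for hymenoptaecin (GB51306 0.885, GB50423 0.809) and abaecin (GB51306 0.778, GB43784 0.6525). Apidaecin with GB50423 was at 0.881. For defensin 1 r was higher there, at 0.920 with GB53576 and 0.897 with GB44549. These likenesses are descriptions, since every gene shares the same libraries.

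Deviations of defensin 1 from the group means were correlated between nurses and guards that share a title number, while the levels themselves could lie far apart. In colony 6, the bees numbered 210 had 76.4, 84.1 and 102 CPM (guard, nurse, unresponsive), and those numbered 205 had 64.6, 15.9 and 37.8 CPM. Numbers 213, 230 and 237 had 30.6 to 42.4 CPM in guards but 0.399 to 3.26 CPM in nurses and unresponsive bees. Number 222 was high in the guard and the nurse (105 and 68.9 CPM) and low in the unresponsive bee (2.88 CPM). The nurses of colony 6 thus fell into 3 with 15.9 to 84.1 CPM (205, 210 and 222) and 3 with 1.26 to 1.55 CPM (213, 230 and 237). In colony 5, number 19 had the highest guard and nurse (31.3 and 49.3 CPM), while the unresponsive bees were highest for numbers 32 and 36 (49.0 and 37.1 CPM).

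After the mean of each group of type and colony was subtracted, defensin 1 of the 12 nurses and the 12 same-numbered guards had r of 0.837 and rho of 0.846 (permutation p of r 0.00062, adjusted over 12 relations 0.00744; for rho 0.00103 and 0.0124). Without the 2 numbers farthest from the median r was 0.866. It was 0.928 in colony 5 and 0.948 in colony 6 (6 numbers each; exact permutation p = 0.0167 and 0.00972, each 0.200 after adjustment over 24 relations within colonies). Defensin 1 of unresponsive bees gave r of 0.331 with nurses and -0.0670 with guards (adjusted permutation p = 0.632 and 0.912). For hymenoptaecin, abaecin and apidaecin none of the 9 relations passed, with adjusted permutation p of 0.445 or more. The relation was looked for after the values had been seen.

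**Figure D5:**
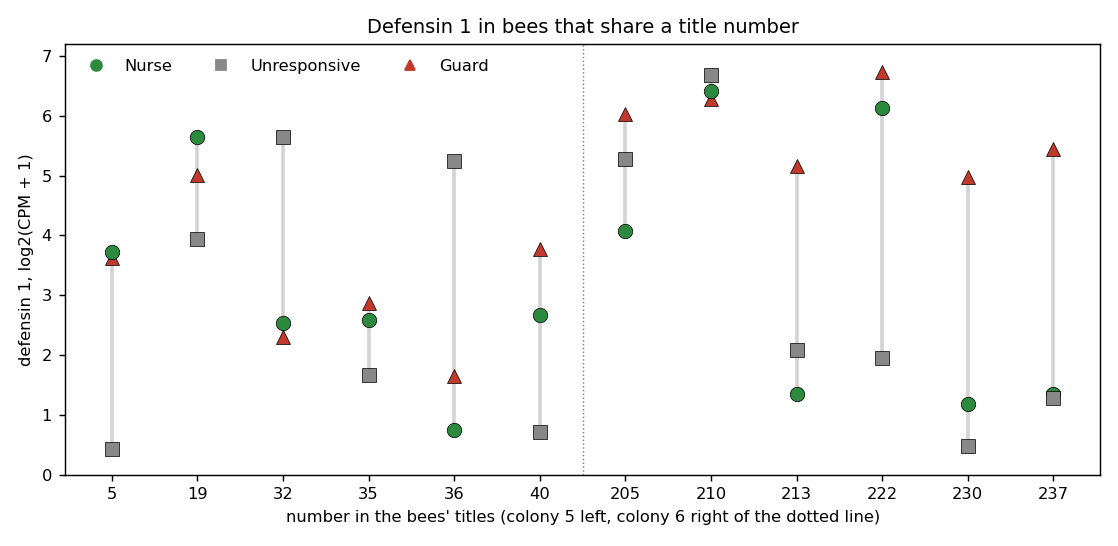
Defensin 1 level, as log2(CPM + 1), of the guard, nurse and unresponsive bee that share each title number; grey lines join the lowest and highest of the 3. In colony 5 number 19 has the highest guard and nurse (31.3 and 49.3 CPM), and in colony 6 both are high for 205, 210 and 222, while for 213, 230 and 237 the guards (30.6 to 42.4 CPM) lie well above the nurses (1.26 to 1.55 CPM).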

How the data were processed

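Counts per gene were deposited by the authors, 1 file per bee, without normalization; TopHat2 2.0.10 with Bowtie2 2.1.0, HTSeq, SAMtools 0.1.19 and CASAVA 1.8.2 are listed in the submitters' processing notes, while the strand setting, HTSeq version and annotation version were not given in these sources. Libraries were stranded mRNA libraries from 550 ng RNA per the labels' protocols. The 5 summary rows naming no gene (no-feature reads 27.2 to 30.0% of counted reads) stayed out of all totals. DWV load was computed from the labelled reads. The RefSeq gene table supplied matched 0 of the 15314 IDs, so no positions or sequences are given.

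Tests used edgeR 4.0.16 in R 4.3.3 (filterByExpr by type, TMM, robust quasi-likelihood fit, Benjamini-Hochberg over all kept genes, threshold 0.05). Alternatives were DESeq2 1.42.0, its size factors, no filter, no robust fit, a number block, DWV as a term, subsets and leaving out each library. The code was tested on simulated counts. Correlations used log2(CPM + 1) and 100000 two-sided permutations in Python 3.11.15 (NumPy 2.4.6, SciPy 1.17.1); 1e-05 is the smallest p these can give. Intervals for levels at a count of 0 (3 counts) cover counting error only. Each bee was 1 library, so the spread is between bees. Title numbers paired bees only in the relations by title number and in the number block. Genes named besides the members were the 2 with the highest r to each. The members, lists and rules were chosen with earlier results of these data known. The colony 6 comparisons as results of their own, the fits within 1 type, those without the 4 guards and the relations by title number were added after the values were seen.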

Additional observations from a re-analysis of the deposited data

Results flagged for a closer look

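Of 24 groups of 6 bees (4 genes, 2 colonies, 3 types), 8 had 1 bee standing apart from the other 5 in CPM, where chance would flag about 1 in 20 groups of evenly scattered values; these levels are skewed. In colony 5, Guard 5 stood apart in hymenoptaecin (66.4 CPM, next bee 11.1) and in apidaecin (47.5 CPM, next 1.19), and it was the highest colony 5 bee in both genes. Nurse 32 stood apart in abaecin (6.74 CPM, next 0.573), and Unresponsive 19 in apidaecin (18.1 CPM, next 3.80). In defensin 1, Guard 19 (31.3 CPM, next 12.7) and Nurse 19 (49.3 CPM, next 12.2) stood apart, and both carry number 19. In colony 6, Unresponsive 222 stood apart in abaecin (2.40 CPM, next 0.150) and Unresponsive 210 in defensin 1 (102 CPM, next 37.8). The colony 6 guards were not flagged in any of the 4 genes. In hymenoptaecin, abaecin and apidaecin 4 of the 6 were high together. In defensin 1 they ran from 30.6 to 105 CPM with no guard standing apart.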

How the results depend on the processing

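Hymenoptaecin, abaecin and apidaecin rested on 1231 to 20210 counts in each of the 4 high guards and on 0 to 86 counts in the 12 nurses and unresponsive bees of colony 6, whose levels are therefore known less precisely. The causes of the changes below were not tested. Of 105 alternative counts of members or pairs past the threshold, those leaving out 1 library apart, 83 were within 1.5 times the count reported. A count of 0 under both settings was taken as within it, and most counts reported were 0. DESeq2 called 3 members in guards against nurses, 3 in unresponsive bees against guards, 2 in the interaction and 1 between high and low DWV in colony 6 guards, against 0 each with edgeR. Without the robust fit, 2 passed in the interaction (background: 5 of 10948 genes). Colony 6 alone gave 3 for guards against nurses and 3 for unresponsive bees against guards. Of the 3 calls in each of those colony 6 comparisons, 0 were left with DWV load as a term, 0 without the libraries numbered 213, and 0 without Guards 210, 213, 230 and 237. Calls over all genes in these fits were 0 of 10954, 0 of 10961 and 0 of 11316 for guards against nurses. For unresponsive bees against guards they were 2 of 10954, 3 of 10961 and 0 of 11316. Without those 4 guards, a set chosen on the levels tested, 1 member passed between colonies (background: 3626 of 11087 genes), which is a description and no test. Among the 12 guards alone, those 4 included, 2 members passed between colonies (background: 731 of 10782 genes). Of the 6 member pairs, all 6 passed over 36 bees, and 3 passed in colony 5 alone, in colony 6 alone, without the 4 guards, on residuals from the group means, and without the 2 farthest bees.

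Leaving out 1 library gave 0 to 2 members past the threshold for guards against nurses, 0 to 1 between colonies and between high and low DWV in colony 6 guards, 0 to 3 in the interaction and in the colony 6 comparisons of guards with nurses and with unresponsive bees, 3 to 6 member pairs (3 without Guard 210 or Guard 237) and 0 to 3 relations with DWV load. It gave 0 in every fit of unresponsive bees against nurses, of unresponsive bees against guards over both colonies, of the DWV slope and of high against low DWV in colony 5.

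Title numbers were tested as a replicate block. Same-numbered bees had correlated deviations over 0.1 in 22 of 36 pairs (median 0.163, lowest -0.177), and differently numbered bees of the same colony and another type in 39 of 180 (median -0.0261). Of 36 bees, 18 correlated best with a bee of their own number, which holds 1 of the 6 bees of each other type in the colony. That is a hint from the data and not from the design. Since not every same-numbered pair was over 0.1 and the labels do not say what the number is, the fits reported have no block. Under the block, 1 member (apidaecin) passed in guards against nurses of colony 6 (edgeR adjusted p = 0.0154, background 10 of 10954 genes) and 1 in unresponsive bees against guards (0.0112, background 9 of 10954 genes). In the former, hymenoptaecin (8.58; adjusted p = 0.0765) and abaecin (6.84; 0.108) did not pass, and in the latter neither did (0.101 and 0.109). Defensin 1 was at 2.46 ± 0.94 for guards against nurses of colony 6 (adjusted p = 0.252). Of the 4 members 0 passed over both colonies, and genes called in guards against nurses over both colonies went from 10 to 38. With the block abaecin was at 0.23 for unresponsive bees against nurses in colony 6, and the DWV slopes were 1.51, 1.19 and 1.62 for hymenoptaecin, abaecin and apidaecin (edgeR adjusted p of 0.712 or more) and 0.59 for defensin 1.

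Signs turned in log2 differences that were not called. For unresponsive bees against nurses, apidaecin was at -0.22 with DESeq2, -0.55 with only those types, -0.57 without the 4 guards, -1.79 in colony 6 and -1.07 with DWV as a term, hymenoptaecin was at -0.38 and abaecin at -0.54 with that term, and abaecin was at -0.074 and defensin 1 at -0.22 in colony 6. In colony 5, abaecin was at -0.41 and defensin 1 at -0.21 for guards against nurses and at 0.78 and 0.61 for unresponsive bees against guards, and their DWV slopes were -0.52 and 0.039. For colony 6 against colony 5, hymenoptaecin was at 1.53 with DWV as a term, 0.36 without the libraries numbered 213 and 5.06 in guards; abaecin was at -0.20 with DESeq2 and -0.86 without the 4 guards; apidaecin was at -0.56 with DESeq2, -2.23 without the 4 guards, -1.26 in nurses and -3.37 in unresponsive bees. Without the 4 guards the apidaecin interaction was -1.08 and the DWV slopes of abaecin and defensin 1 were -0.18 and 0.035. Without type in the model the defensin 1 slope was 0.060. Without the 4 guards, r with DWV load was 0.0285, 0.114, 0.0700 and 0.0890 for hymenoptaecin, abaecin, apidaecin and defensin 1 in the high range and -0.101 for apidaecin in the low range. Leaving out 1 library turned the sign of the hymenoptaecin colony difference in 18 of 36 fits (-0.45 to 0.45) and of the apidaecin difference of unresponsive bees from nurses in 10 of 36 (-1.71 to 0.90). In the same comparison it turned abaecin in 1 fit (-0.43 to 2.14) and defensin 1 in 3 (-0.30 to 0.70), and within colony 6 hymenoptaecin in 1 of 18 (-0.16 to 1.16), abaecin in 7 (-3.03 to 0.98) and defensin 1 in 6 (-1.66 to 0.46). It turned the defensin 1 DWV slope in 4 fits (-0.14 to 0.11), abaecin and defensin 1 between high and low DWV in colony 5 in 2 of 18 fits each (-3.45 to 0.66 and -1.35 to 0.57), and r of apidaecin with DWV load in the low range in 1 (-0.101 to 0.254).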
